A study of Mus musculus with 4 samples.

Results

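The neuron navigator genes Nav1, Nav2 and Nav3 were examined for TOP2B cleavage complexes in cultured mouse cortical neurons. The deposited list gives each peak of signal 1 summit, the base at which the signal was highest. A summit was assigned to a gene when it lay in the gene's span in mouse build GRCm38 or within 10 kb of it. By this rule 49 of the 35539 entries of the list belonged to the 3 genes. Nav1 held 4, Nav2 held 23 and Nav3 held 22. The genes were chosen by the number and position of these summits, Nav2 for its high summit density, so all values below are a description of the list and are given without a test.

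The neurons were dissociated from the cortex of wild-type Swiss-Webster mouse embryos at day 16 and treated with 50 µM etoposide for 30 min. TOP2Bcc-seq is a native chromatin immunoprecipitation (ChIP) of TOP2B from sonicated lysates, and 2 ChIP and 2 input libraries were made, all from etoposide-treated cells of the same genotype. There was no culture without etoposide among these libraries. The values came from 1 list that the authors pooled over libraries, so nothing below has a standard deviation or an n, the depth of each library is unknown, and a peak list holds no expression with which the labelled cell type could be checked. Nothing in the labels says whether the 2 libraries of a kind came from separate cultures.

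TOP2B is the form of topoisomerase II found in neurons that no longer divide. It cuts both strands of a DNA duplex, passes another duplex through the break and reseals it, and etoposide holds the enzyme at the cut ends. Neuron navigators are large relatives of UNC-53, a protein that guides migrating cells and axons in the worm Caenorhabditis elegans. They bind growing microtubule ends and carry an ATPase domain of the AAA type near their carboxyl end. Nav1 is known from growth cones, Nav2 was found as a gene induced by retinoic acid in neuroblastoma cells, and Nav3 is known mainly from the nervous system. The symbols are not those of the voltage-gated sodium channels, whose proteins have similar names.

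The 3 genes differ in size and place. Nav1 lies on chromosome 1 from 135434580 to 135688350 (253.8 kb), Nav2 on chromosome 7 from 48959063 to 49610090 (651.0 kb), and Nav3 on chromosome 10 from 109681260 to 110455722 (774.5 kb). A promoter table of RefSeq start sites in build GRCm38.p6 held 2 of the 3 genes, with 1 start site for Nav1, on the minus strand, and 2 for Nav2, on the plus strand. The Nav1 start site, at 135585355, lies inside the listed span, 103.0 kb from its upper-coordinate end. The Nav2 start sites, at 48959073 and 49246189, lie 287.1 kb apart along the gene. The 250 bases before each start site are shown because the distances of summits below are measured from these sites. They are written 5′ to 3′ on the strand of the gene, and capitals mark GGGCGG, the letters of a GC box, on either strand.

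Nav1, chr1:135585356-135585605, minus strand: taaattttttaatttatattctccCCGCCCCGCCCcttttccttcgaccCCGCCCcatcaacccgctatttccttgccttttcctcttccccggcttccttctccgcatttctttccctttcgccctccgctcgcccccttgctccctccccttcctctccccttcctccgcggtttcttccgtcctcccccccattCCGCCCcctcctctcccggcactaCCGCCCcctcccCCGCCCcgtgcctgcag
Nav2, first start site, chr7:48958823-48959072, plus strand: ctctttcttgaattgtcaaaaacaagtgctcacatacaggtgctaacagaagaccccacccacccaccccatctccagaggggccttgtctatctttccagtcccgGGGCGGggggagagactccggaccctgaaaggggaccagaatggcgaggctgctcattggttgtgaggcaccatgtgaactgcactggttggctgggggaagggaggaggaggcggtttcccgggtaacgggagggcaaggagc
Nav2, second start site, chr7:49245939-49246188, plus strand: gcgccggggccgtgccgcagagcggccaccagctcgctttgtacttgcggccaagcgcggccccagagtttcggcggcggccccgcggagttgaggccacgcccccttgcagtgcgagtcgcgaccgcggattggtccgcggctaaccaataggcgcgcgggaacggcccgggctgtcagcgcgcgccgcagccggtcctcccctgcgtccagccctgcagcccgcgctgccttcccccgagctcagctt

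The 3 windows differed in base composition. The window of the second Nav2 start site held 36 CpG dinucleotides and was 74.4% G and C, more CpG than 97.4% of the 32851 windows of the table. The Nav1 window held 18 CpG at 62.4% G and C, and the window of the first Nav2 start site held 7 CpG at 58.8%, against a median of 6 CpG and 52.4% over all windows. GGGCGG occurred 6 times in the Nav1 window, where a pair of matches overlapped by 1 base, once before the first Nav2 start site and not before the second. It was found in 32.7% of all windows of the same 250 bases. TGACGTCA, TGANTCA and CACGTG, the letters of a cAMP response element, of an AP-1 site and of an E-box, were in none of the 3 windows. On either strand these were found in 1.55%, 6.75% and 6.02% of all windows. No summit lay in the table's windows for Nav1 or Nav2, which run from 250 bases before to 50 after a start site. A summit lay in 0.658% of all windows.

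Nav2 had the most summits per length, Nav3 followed and Nav1 was last. Over span and flanks Nav2 had 3.43 summits per 100 kb (95% Poisson interval 2.17 to 5.14). Nav3 had 2.77 per 100 kb (1.74 to 4.19) and Nav1 had 1.46 (0.398 to 3.74). These intervals, like all below, cover counting error only. With 4 summits, Nav1 has the widest interval for its number.

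Among genes of their own size, Nav2 stood at the top and Nav3 near it. Nav2 was chosen for its high summit density, so its place here restates that choice. None of the other 139 protein-coding genes within 25% of the length of Nav2 had more summits or a higher density. Their median was 1.29 summits per 100 kb, their quartiles were 0.929 and 1.71, and the highest value was 2.94. Of the 101 other genes within 25% of the length of Nav3, 2 were denser, namely Nav2 and Zfhx3, a homeobox transcription factor gene. Their median was 1.29 per 100 kb. Nav1 lay near the middle of the 540 other genes of its size, of which 233 were denser and whose median was 1.34. Short genes reach higher values, and over all 990 protein-coding genes of 200 kb or more Nav2 ranked 28th, Nav3 69th and Nav1 422nd, with a median of 1.31 and quartiles of 0.843 and 1.90. At least 1 summit in span and flanks was found in 53.4% of all protein-coding genes.

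**Figure D1:**
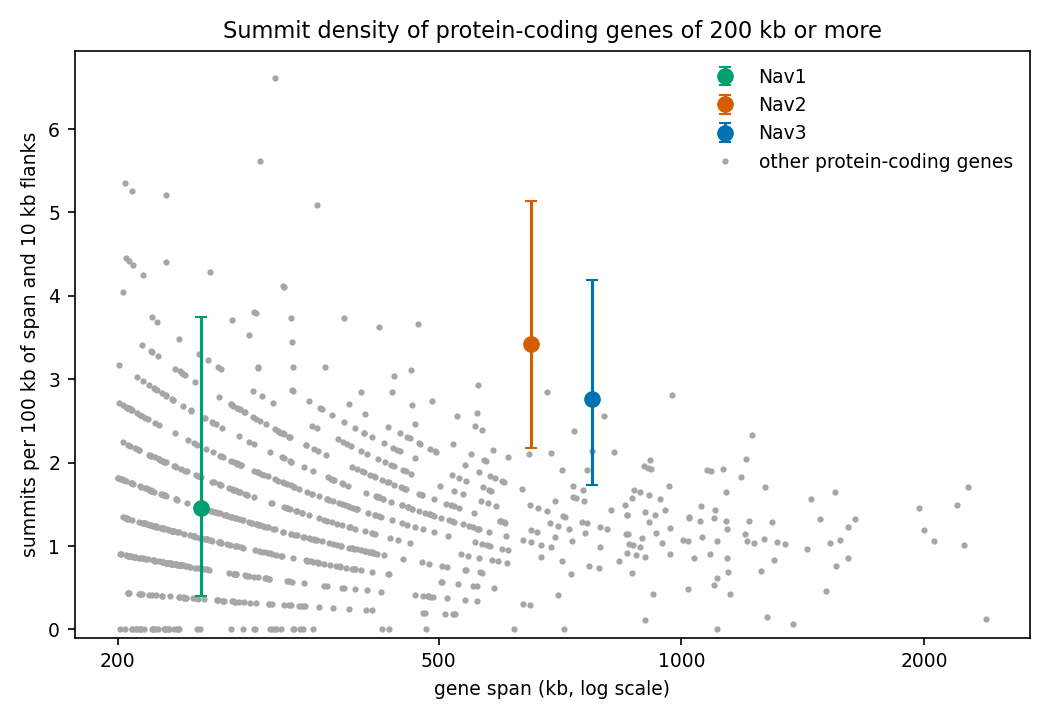
Summits per 100 kb of span and 10 kb flanks against gene span in kb on a log axis, for the 990 protein-coding genes of 200 kb or more. Coloured points are Nav1, Nav2 and Nav3 with 95% Poisson intervals, and grey points are all other genes. Nav2 (3.43), chosen for its high density, lies above every gene within 25% of its length, and Nav1 (1.46) lies among the bulk of genes of its size.

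The genes nearest in length and density gave a picture of what else looks like each navigator in this list. For Nav2 these were Lrba (2.94 summits per 100 kb), Zfhx3 (2.85) and Nav3 itself. For Nav3 they were Zfhx3, Camta1 (2.55), a calmodulin-binding transcription activator gene, and Alk (2.38), a receptor tyrosine kinase gene. For Nav1 they were Kcnj6, a potassium channel gene, Apba2 and Pcdha1, each with 4 summits. Likeness was the difference in summits per 100 kb among protein-coding genes within 25% of the same length, in a single pooled list.

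The DNA beside Nav2 and Nav3 held fewer summits per length than the genes. In the 500 kb beyond each flank, there were 11 summits around Nav2, or 1.10 per 100 kb (0.549 to 1.97), against 3.43 in the gene and 1.53 over chromosome 7. Around Nav3 there were likewise 11, 8 below the gene and 3 above it, or 1.10 per 100 kb (0.549 to 1.97). This compares with 2.77 per 100 kb in the gene (1.74 to 4.19) and 1.45 over chromosome 10. The interval beside Nav3 overlaps that of the gene. Nav1 ran the other way. It had 1.46 per 100 kb (0.398 to 3.74), from 4 summits, and chromosome 1 had 1.44. The DNA beside Nav1 had 24 summits, 2.40 per 100 kb (1.54 to 3.57), of which 19 lay beyond the upper-coordinate flank. That value lies inside the interval of Nav1, so the direction of this difference is uncertain.

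**Figure D2:**
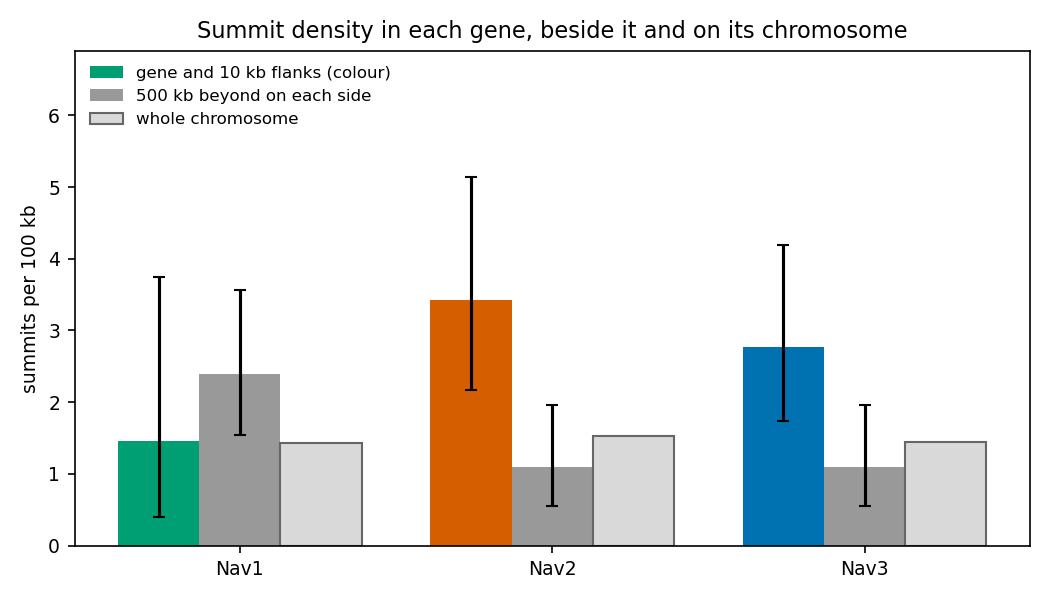
Summits per 100 kb in each gene with its 10 kb flanks (coloured bars), in the 500 kb beyond on each side (dark grey) and over the whole chromosome (light grey), with 95% Poisson intervals on the first 2. Nav2 (3.43) and Nav3 (2.77) exceed the DNA beside them (1.10 each), though for Nav3 the 2 intervals overlap. Nav1 (1.46) lies below the DNA beside it (2.40), a value inside the Nav1 interval.

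The rule's limit of 10 kb affected 1 summit. The only member outside a gene span lay 9.4 kb below Nav3, at 109671839, with a fold of 2.42 over control and a q of 0.272. The nearest summits left out were 14.4 kb below Nav3 (fold 2.94, q 0.0675) and 26.8 kb below Nav2 (fold 3.65, q 0.0025). Around Nav1 the nearest were 75.9 kb above and 85.0 kb below the gene, with folds of 2.25 and 2.20.

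At the median, the summits of Nav2 were slightly stronger than those of Nav3 and Nav1, a difference that was not tested. Fold is the caller's ratio of ChIP pileup to control at the summit, and q is the caller's adjusted p-value, both as the authors deposited them. The adjustment was not over the listed entries alone, as q reached 0.776 although no −log10 p was below 2.00. Summits of Nav2 had a median fold of 2.94 (quartiles 2.59 and 3.20, range 2.05 to 3.63). Summits of Nav3 had a median of 2.59 (2.42 and 2.77, range 2.01 to 3.11), and the 4 of Nav1 a median of 2.59 (range 2.55 to 2.94). The median of the list was 2.77 (quartiles 2.49 and 2.94). Nav2 thus lay above the list median by the height of 1 fragment, and Nav3 and Nav1 lay below it by as much.

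A q of 0.05 or less was given to 9 of 23 summits in Nav2 (39.1%, 95% Wilson interval 22.2 to 59.2), to 3 of 22 in Nav3 (13.6%, 4.75 to 33.3) and to none of 4 in Nav1 (Wilson upper bound 49.0%). The share in the whole list was 23.4%, which lies inside all 3 intervals. None of the 139 other genes of like length had as many as the 9 of Nav2, their highest count being 8 and their median 2. Nav2 was chosen for its summit density and had the most summits of these genes, so this count is not separate from that choice. Camta1, also within 25% of the length of Nav2, reached 8 among 21 summits. Nav3, with 3, was exceeded by 27 of the 101 genes of its size. A fold of 3 or more was reached by 8 summits of Nav2 (34.8%), 3 of Nav3 (13.6%) and none of Nav1, against 22.4% of the list. Among all 49 summits of the 3 genes, 11 reached that fold (22.45%, against 22.39% of the list). A q of 0.05 or less was given to 12 of the 49 (24.5%, 95% Wilson interval 14.6 to 38.1), against 23.4% of the list. Both shares of the 49 were thus close to those of the list.

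The counts behind these folds were small. A whole-number pileup could be recovered from fold and p for all 49 summits. It ran from 13 to 21 fragments in Nav2 (median 16), from 12 to 17 in Nav3 (median 14.5) and from 14 to 18 in Nav1 (median 15), against a median of 15 in the list. The control level at these summits ran from 4.78 to 6.63 fragments. It was 4.78 at 18 of 23 summits in Nav2, 15 of 22 in Nav3 and 3 of 4 in Nav1, against 71.1% of the list. This was both the lowest and the most common control level of the list. Among summits at that level, where fold depends on pileup alone, the medians were 16 fragments in Nav2, 14 in Nav3 and 14 in Nav1, against 15 in the list. The difference between Nav2 and the other 2 genes was thus 2 fragments at the median. Over all control levels, 7 summits of Nav2 had more than 17 fragments, which was the upper quartile of the list. These include the summit at 49254270, with 21 fragments over a control of 6.46. No summit of Nav3 had more than 17, and the highest of Nav1 was 18.

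**Figure D3:**
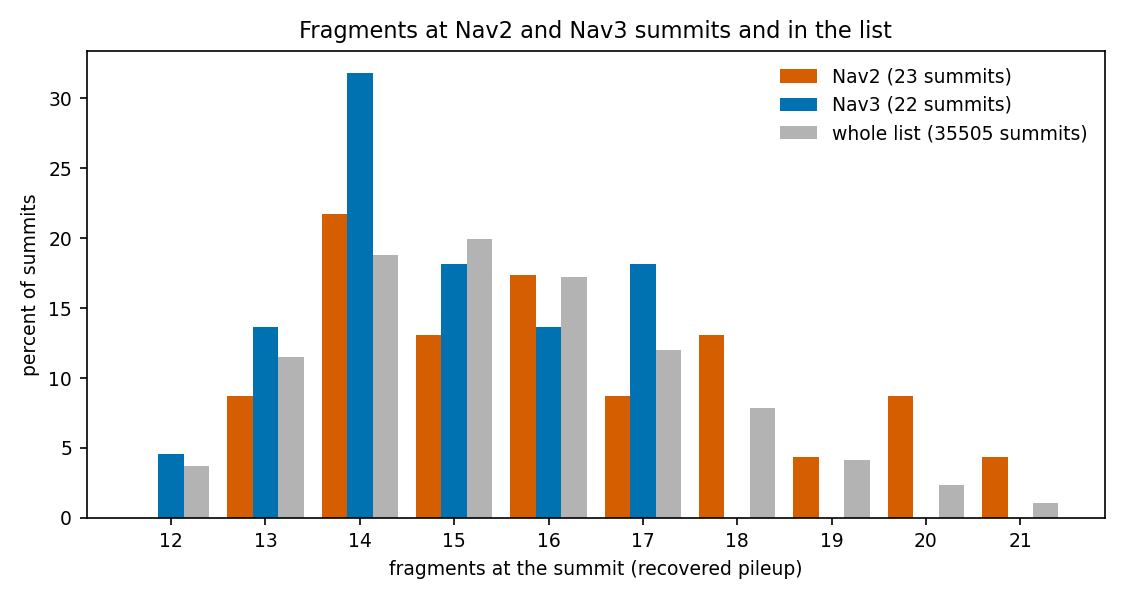
Percent of summits at each recovered number of fragments from 12 to 21, for Nav2 (23 summits), Nav3 (22 summits) and the whole list (35505 summits, of which those below 12 or above 21 are not drawn). Nav2 reaches 21 fragments and Nav3 stops at 17.

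Along Nav2 the summits fell into 2 stretches with a long gap between them. The first 6 lay in the 116.9 kb after the lower-coordinate end, which is the side of the first start site. They began at 48971979, 12.9 kb downstream of that site, and ended at 49075937. The next 178.3 kb, 27.4% of the span, held none. That gap ended 8.1 kb downstream of the second start site, at a summit at 49254270, which was also the widest of the gene (419 bp, chr7:49254177-49254595) with 21 fragments, a fold of 2.95 and a q of 0.0208. Widths of 400 bp or more occurred in 3.17% of the list. From the second start site to the upper-coordinate end Nav2 had 17 summits in 363.9 kb, or 4.67 per 100 kb (2.72 to 7.48). Between the start sites it had 6 in 287.1 kb, or 2.09 per 100 kb (0.767 to 4.55).

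The strongest Nav2 summits were in the first stretch. A fold of 3.63, with 20 fragments and a q of 0.00437, was found at 49040363 (chr7:49040178-49040500) and again at 49059492 (chr7:49059396-49059601), 81.3 and 100.4 kb from the lower-coordinate end. Only 1.35% of the list had a higher fold. A fold of 3.46 with 19 fragments followed at 48986604, 27.5 kb from that end. The summit at 49059492 and the next one, at 49075937 with a fold of 2.94, also lay in Gm32849, a long noncoding RNA gene of 74.6 kb listed within Nav2, so they cannot be given to Nav2 alone.

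Downstream of the second start site the Nav2 summits came in groups. The 5 from 49254270 to 49301492 included the summits at 49257768 (fold 2.54), 49281060 (2.59), 49300773 (3.11) and 49301492 (2.94). An empty stretch of 99.5 kb followed, then 3 summits at 49400943 (2.59), 49402591 (2.77) and 49433675 (2.94), and another empty stretch of 62.7 kb. The summit at 49496338, with a fold of 3.11 and a q of 0.039, opened the last group. Folds were thus lower here than at the strongest summits of the first stretch, none exceeding 3.29 against 3.63.

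The end of Nav2 away from its start sites was the most crowded part of the 3 genes, counted over 100 kb. Of 10 equal parts of 65.1 kb, the last held 6 summits, while 2 neighbouring parts in the gap held none. In the 100-kb stretch with most summits there were 8, from 49496338 to 49587954, and as many within 100 kb ahead were counted from 1.70% of the list's summits. This stretch was chosen for its count. The 3 summits nearest the upper-coordinate end, at 49584346, 49587954 and 49601998, all had a fold of 3.29 and a q of 0.0208. The last of them lay 8.1 kb inside that end. The weakest summit of the gene lay in the same crowded part, at 49572631, with a fold of 2.05, 13 fragments and a q of 0.443.

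Close pairs were also a feature of Nav2. Another summit lay within 5 kb of 10 of its 23 summits (43.5%, 95% Wilson interval 25.6 to 63.2), against 17.3% of the list. The closest pair, at 49300773 and 49301492, was 719 bp apart, with folds of 3.11 and 2.94, and their intervals were separated by 471 bp. Further pairs were 805, 1648, 3498 and 3608 bp apart. In Nav3 5 of 22 summits had such a neighbour (22.7%, 10.1 to 43.4), the closest pair lying 2219 bp apart at 110302737 and 110304956, and in Nav1 none of 4 did. Among the 5 in Nav3 was the summit at 109671839, which lay outside the span. Its neighbour, 4960 bp away, was the left-out summit 14.4 kb below the gene. Dense genes have close neighbours more often, so this share was not independent of the number of summits. All 10 Nav2 summits belonged to the pairs named here, and each pair counts every summit in it. The Wilson intervals of these shares treat summits as independent, so they are too narrow. They cannot decide whether a share differs from the 17.3% of the list.

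Nav3 summits were spread more evenly. Of its 21 summits in the span, 12 lay below the midpoint (57.1%, 36.6 to 75.5), compared with 9 of 23 in Nav2 (39.1%, 22.2 to 59.2). Each of the first 9 of 10 equal parts of 77.4 kb held between 1 and 5 summits and the last held none, so that 104.1 kb before the upper-coordinate end was empty. A second empty stretch of 104.4 kb ran from 110181325 to 110285738. After it came 6 summits within 65.9 kb, which had folds of 2.01 to 2.94 and q-values above 0.05. The strongest summits of Nav3 shared a fold of 3.11 with 17 fragments and a q of 0.039, a level exceeded by 12.6% of the list. They lay far apart, at 109785704, 109972525 and 110181325. The last of these and its neighbour at 110175426 (fold 2.25) were also inside a long noncoding RNA gene of 77.7 kb. Most summits between these lay below the list median of 2.77, such as 110101208 (fold 2.59). The exceptions were 109834247 (2.77), at the median, and 109925024 (2.94), above it. The weakest, at 110302737, had a fold of 2.01 and a q of 0.443. The widest Nav3 peak (411 bp) had its summit at 109878747 with a fold of 2.69.

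**Figure D4:**
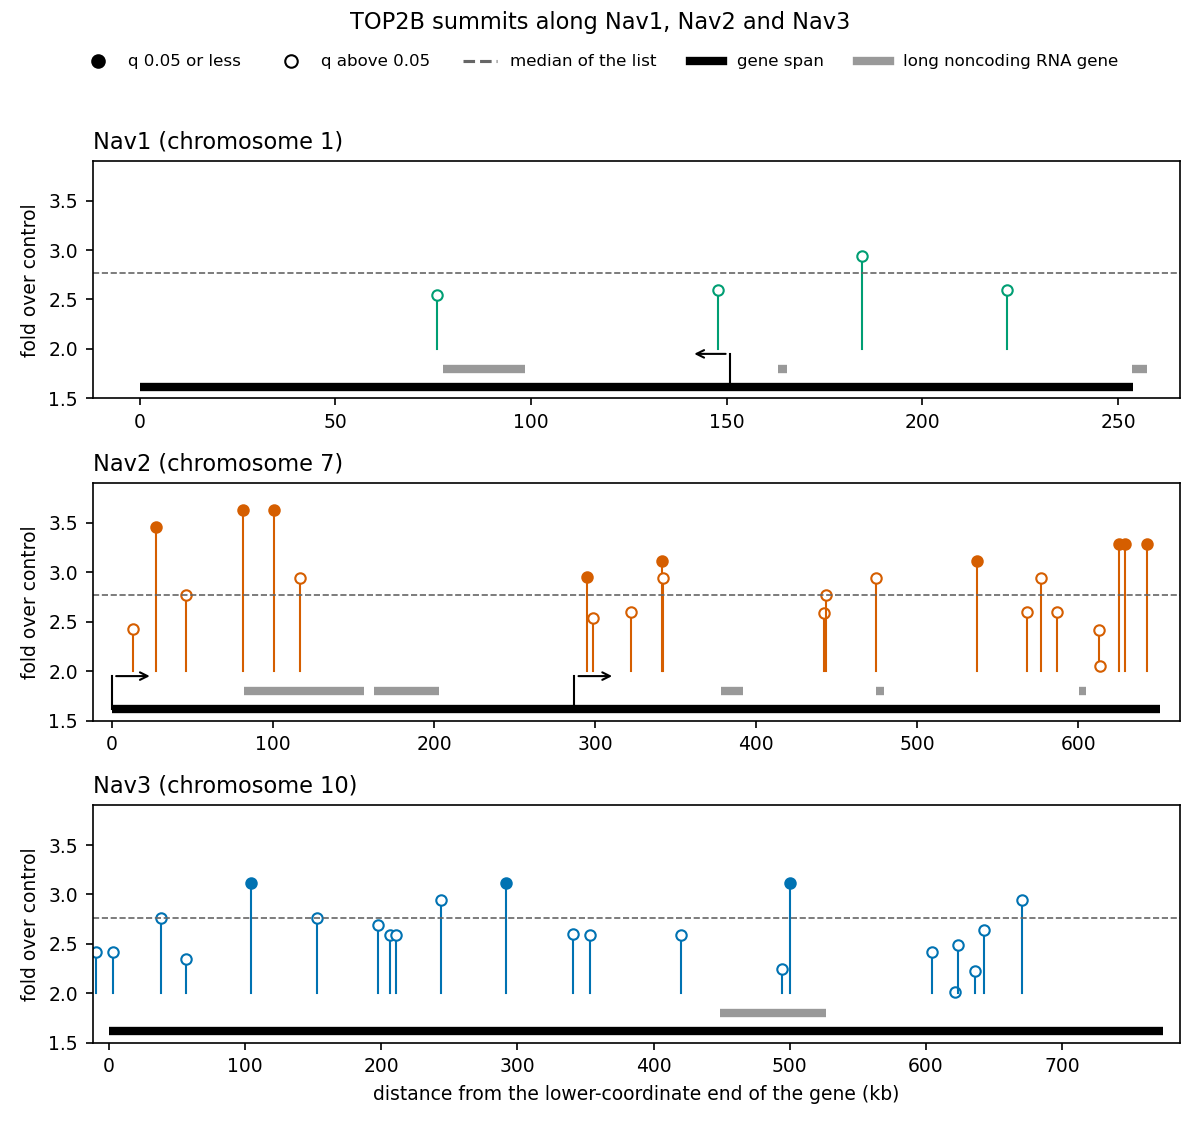
Summits of Nav1, Nav2 and Nav3 by distance in kb from the lower-coordinate end of the gene (horizontal) and fold over control (vertical, starting at 1.5), with filled points for q of 0.05 or less. Black bars are gene spans, grey bars long noncoding RNA genes, arrows start sites with their direction, and the dashed line the list median of 2.77. In Nav2 the strongest summits lie 81.3 and 100.4 kb from the lower-coordinate end and the most crowded ones near the other end, with a gap of 178.3 kb that ends 8.1 kb past the second start site.

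The 4 summits of Nav1 were weak and scattered. They lay at 135510599 (fold 2.55, q 0.110), 135582461 (fold 2.59, q 0.177), 135619151 (fold 2.94, q 0.0675) and 135656163 (fold 2.59, q 0.177). None passed a q of 0.05, and the 76.0 kb next to the lower-coordinate end, which is the side away from the start site on this strand, held none. The summit at 135582461 lay 2.89 kb downstream of the Nav1 start site, the nearest approach of any summit to a listed start site of these genes. It had 14 fragments and the minimum width of 190 bp. The strongest, at 135619151, lay 33.8 kb upstream of that start site but within the listed span.

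None of the 3 genes had a summit within 1 kb of either end of its span. Such a summit was present in only 8.30% of protein-coding genes, so most genes lacked one, as these 3 did. The nearest to an end was at 109684096 in Nav3, 2.84 kb inside the lower-coordinate end, with a fold of 2.42 and a q of 0.272. In Nav2 the nearest were 12.9 kb from the lower-coordinate and 8.1 kb from the upper-coordinate end, and in Nav1 76.0 and 32.2 kb. One summit of Nav2, at 49433675 with a fold of 2.94, lay 58 bp from an end of the long noncoding RNA gene Gm51447, at the end away from that gene's start site, which the promoter table puts at 49438306 on the minus strand.

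**Figure D5:**
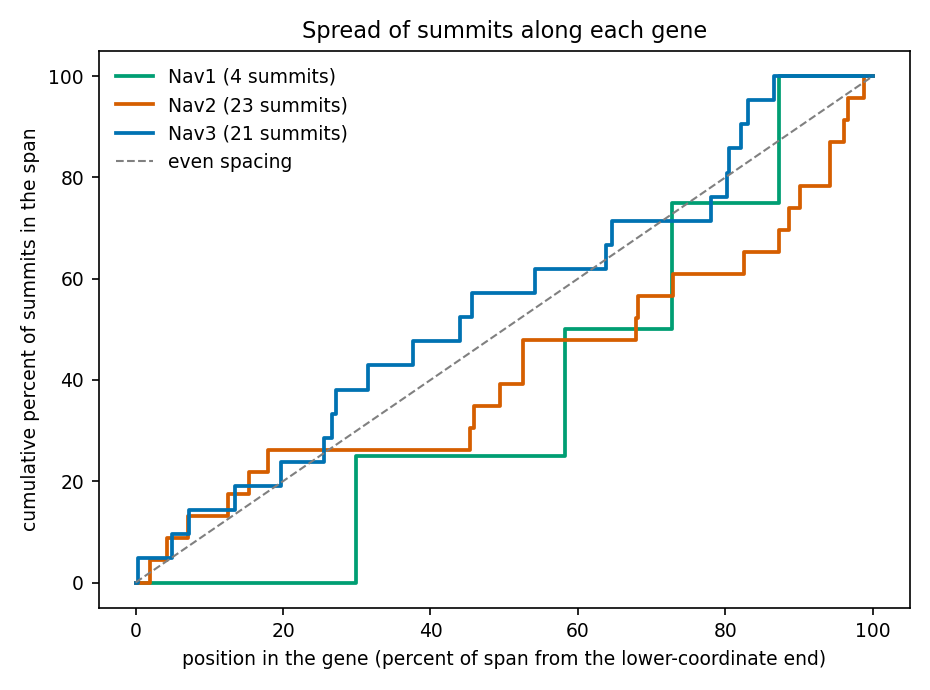
Cumulative percent of the summits in the span against position in the gene, in percent of the span from the lower-coordinate end, for Nav1 (4 summits), Nav2 (23) and Nav3 (21). The dashed line is even spacing. Nav2 stays flat across its gap of 27.4% of the span and climbs at the upper-coordinate end, and Nav3 keeps near the line.

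Other genes of the microtubule system were described beside the navigators, from a list of 33 symbols of plus-end binding, minus-end binding and neuronal microtubule proteins and their partners. Of these, 24 had a summit in span or flanks (72.7%, 55.8 to 84.9), against 53.4% of all protein-coding genes. The median span was 70.4 kb in these 33 genes, against 17.3 kb over all protein-coding genes, and longer genes hold more summits. Together they had 90 summits, 2.11 per 100 kb, against 1.75 over all protein-coding genes. Trio, Clasp1 and Dclk1 had the most summits, and Mapre3, Slain2, Camsap2, Clasp2 and Macf1 tied for the next place with 5 each. Trio, which encodes a guanine nucleotide exchange factor that binds NAV1 in the mouse, had 12 summits in 295.2 kb, or 3.81 per 100 kb, more than Nav2. Clasp1, which encodes a protein that stabilises microtubules at their plus ends, had 9 (3.74 per 100 kb), and Dclk1, a doublecortin-like kinase gene, 8 (2.53).

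Mapre3, the gene of the plus-end binding protein EB3, had 5 summits in 51.5 kb and Slain2 5 in 64.5 kb, whereas Mapre1, which encodes EB1, and Stmn1, Stmn2, Map1a, Map4, Map6, Slain1, Ywhae and Dcx had none. The highest folds among these genes were 3.67 in Trio (27805565 on chromosome 15, q 0.000672), 3.46 in Mapre3 and in Dclk1, and 3.29 in 7 genes that tied for the next place. A gene flank can hold summits of a neighbouring gene, so the counts of short genes such as Tubb3 (4 summits around 10.5 kb) are not theirs alone. In summits per 100 kb, 9 of the 33 genes (27.3%) exceeded Nav2, against 22.9% of all protein-coding genes, and 10 (30.3%) exceeded Nav3, against 29.8%.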

How the data were processed

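The submitters' processing notes list FastQC, Trimmomatic, BWA, SAMtools and MACS2, all lacking a version, and the builds mm10 and GRCm38.p6. For caller settings, duplicate handling and the choice of pooled libraries, nothing is given in the sources used here. Fold, in the headerless peak list deposited by the authors, is a linear ratio of pileup over control, identified by column order and MACS2 conventions. The deposited −log10 p and −log10 q were used as they stand, the smallest −log10 p being 2.00. The deposited display score was not used. Deposited interval positions were made 1-based.

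Spans came from a RefSeq table of GRCm38.p6 (21631 protein-coding genes on 19 autosomes and X), and 34 entries on scaffolds were left out. Pileup and control were solved from fold and p (fold as pileup plus 1 over control plus 1, p from a Poisson tail, tolerance 0.002 of −log10 p), with a unique answer for 35536 of 35539 entries. Intervals are exact Poisson for counts and Wilson for shares, at 95%. Python 3.11.15, pandas 2.3.3 and SciPy 1.17.1 were used. Counting and pileup recovery were checked on simulated data, but the simulated pileups were larger than those of most summits described here.

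The members and lists were chosen with earlier results of these data known. For each gene, the 3 summits of highest fold, the widest, those nearest the ends and limit, and the closest pair were named, with 3 genes of like length and density and the 5 microtubule genes (with ties) of most summits and of highest fold. The crowded stretch of Nav2 and the groups by start site were named after their values were seen. Other flanks, stricter lists, overlap of intervals, merged entries and other distances were tried. No genome sequence was used here, so bases at summits, exons and introns were not analysed.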

Additional observations from a re-analysis of the deposited data

How the results depend on the processing

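Over 22 values and 88 alternative settings, 63 stayed within 1.5 times (counts) or within the counting interval (densities, medians, shares) of the value given above, and 25 did not. Using the spans alone, flanks of 50 kb, overlap of the whole interval or merged entries moved no count, density, median or share beyond that. Stricter lists did. With q of 0.05 or less, Nav1 had 0 summits (0 per 100 kb), Nav2 9 (1.34 per 100 kb) and Nav3 3 (0.378 per 100 kb). With a fold of 3 or more, they had 0 (0 per 100 kb), 8 (1.19) and 3 (0.378). With a fold at or above the list median, Nav1 had 1 (0.365 per 100 kb), Nav2 15 and Nav3 7 (0.881). The order of the genes was kept in each. In that last list 0% of Nav1 summits, that is of 1, lay below the midpoint, against 25% in the full list. Neighbours within 20 kb were found for 21 summits of Nav2 and 16 of Nav3, within 2 kb for 6 and 0, and within 5 kb in the list of higher folds for 4 and 0. With end windows of 5 kb, Nav3 had 1 end summit. The microtubule list kept its count within 1.5 times under both settings tried. Nav1 had no summit of q 0.05 or less, so its positions under that limit gave no value. No paired analysis was possible because the deposited list is pooled over libraries. Pileups of 12 to 21 fragments limit the precision of every fold.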
